A study of Mus musculus with 2 samples.

Results

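The genes described here encode the enzymes that turn squalene epoxide into cholesterol: Lss, Cyp51, Tm7sf2, Msmo1, Nsdhl, Hsd17b7, Ebp, Sc5d and Dhcr7. They were chosen by their place in the pathway and found by their symbols, and all 9 were found once each among the 32285 genes of the files. Single-cell RNA sequencing was performed on back skin and on preputial glands (PG) of 3 male wild-type C57BL/6 mice at 52 weeks of age. Biopsies of back skin and samples of PG were dissociated with one enzymatic kit, and samples were pooled within each tissue before sequencing. Each tissue is therefore 1 library without replicates, no gene was modified and no animal was treated. No test between tissues or cells is possible with this design, and every interval below is an exact 95% interval that covers counting error only. Where a class had no UMI of a gene, the level that 3 UMIs would give is printed as the limit.

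The files hold counts of unique molecular identifiers (UMIs), that is, of captured transcript ends per gene and barcode. The skin library held 37675226 UMIs and the PG library 26288071. Barcodes were kept from 500 detected genes and 1000 UMIs upward if mitochondrial transcripts made up 10% or less. Of skin, 8899 cells remained (median 2386 UMIs), and of PG 4699 (median 2729 UMIs). The list of possible barcodes differed between the files, 6794880 for skin and 737280 for PG, although a single kit is named, so tissue and library cannot be told apart in any ratio of PG over skin. No cell barcode occurred in both libraries, from which nothing is concluded because their lists differ.

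Cells were assigned to classes by markers, with at least 3 markers of a class detected in a cell. In skin this gave 2635 basal, 1850 suprabasal and 127 granular keratinocytes, 891 keratinocytes with follicle markers, 279 hair matrix cells, 479 inner root sheath cells, 31 sebocytes and 900 fibroblasts. In PG it gave 810 basal keratinocytes, 887 keratinocytes with follicle markers, 851 sebocytes and 552 fibroblasts, but only 7 suprabasal keratinocytes and no granular, hair matrix or inner root sheath cell. Of the sebocytes, 14 of 31 in skin and 623 of 851 in PG lay at the limit of 3 markers, while 436 and 1211 cells with 2 sebocyte markers were not counted. Markers kept out of the sebocyte gate differed between the tissues. Far2, which makes fatty alcohols for wax esters, reached 276 CPM (UMIs of the gene per 1000000 UMIs of the class) in skin sebocytes against 1.59 in skin basal keratinocytes, but only 0.223 in PG sebocytes against 1.02 in PG basal keratinocytes. Elovl3, a fatty acid elongase, stood at 199 CPM in skin sebocytes and at 5.12 in PG sebocytes. Dgat2, which forms triglycerides, stood at 57.8 CPM in skin sebocytes against 6.98 in basal keratinocytes, and at 44.6 against 6.13 CPM in PG. Among the gate markers, Awat1 had no UMI in PG sebocytes, which allows up to 0.668 CPM (3 UMIs of the class), while Awat2 stood there at 637 CPM. The median skin sebocyte also carried 26.9 basal keratinocyte marker UMIs per 10000 and the median PG sebocyte 14.02. Whether these RNAs belong to the sebocytes was not tested. Conversely, the median PG basal keratinocyte carried 7.51 sebocyte marker UMIs per 10000 and the median skin basal keratinocyte 0. The part of this difference in the ratios was not tested.

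Cholesterol synthesis runs from acetyl-CoA through mevalonate to squalene, and the first sterol, lanosterol, is formed only when the epoxide of squalene is closed into rings. Lanosterol still carries methyl groups that cholesterol lacks and has its double bonds in other places, and the enzymes described here remove and shift them in the endoplasmic reticulum. In skin, sebocytes secrete lipids including wax esters and, by reports that conflict for rodents, squalene. The differentiating epidermis uses cholesterol, together with ceramides and fatty acids, for the barrier of the cornified layer. The family of sterol regulatory element binding proteins (SREBP), acting with NF-Y and Sp1, is the known transcriptional control of this pathway.

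To show what the genes share before any level is given, their promoters were read from RefSeq (build GRCm38.p6, 250 bases before to 50 after the start of transcription), in which all 9 genes were found with 11 promoters. The CCAAT letters recognised by NF-Y, searched on both strands, occurred in at least 1 promoter of all 9 genes and in 9 of 11 promoters, against 37.4% of all 32851 mouse promoters in that table. The Sp1 letters GGGCGG, likewise on both strands, occurred in 10 of 11 promoters, against 35.7% of all. A strict sterol regulatory element, TCACNCCAC on either strand, occurred in 0 of 11 and in 1.24% of all promoters, which says only that these letters are not in this window. The reverse complement of CCAAT can overlap GGGCGG by its G letters, and a match is not a site shown to be used. The promoters of 4 genes are printed, because Lss and Msmo1 were higher in sebocytes than in basal keratinocytes of both tissues, while Sc5d and Dhcr7 were not. Capitals mark CCAAT or its reverse complement, each line reads 5′ to 3′ on the strand of the gene, and for Dhcr7, which has 3 listed starts, the only promoter with the motif is given.
Lss, chr10:76531355-76531654, plus strand: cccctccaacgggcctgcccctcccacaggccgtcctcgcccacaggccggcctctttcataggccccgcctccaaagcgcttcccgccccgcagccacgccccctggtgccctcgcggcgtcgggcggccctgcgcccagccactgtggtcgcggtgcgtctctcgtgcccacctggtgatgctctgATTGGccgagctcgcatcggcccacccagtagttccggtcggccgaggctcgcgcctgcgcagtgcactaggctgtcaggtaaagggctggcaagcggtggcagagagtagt
Msmo1, chr8:64733529-64733828, minus strand: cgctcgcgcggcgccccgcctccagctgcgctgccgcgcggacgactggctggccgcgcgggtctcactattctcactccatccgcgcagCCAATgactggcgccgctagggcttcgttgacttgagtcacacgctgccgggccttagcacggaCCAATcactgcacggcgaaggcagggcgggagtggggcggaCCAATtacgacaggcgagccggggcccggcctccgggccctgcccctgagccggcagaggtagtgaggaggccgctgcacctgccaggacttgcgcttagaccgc
Sc5d, chr9:42264251-42264550, minus strand: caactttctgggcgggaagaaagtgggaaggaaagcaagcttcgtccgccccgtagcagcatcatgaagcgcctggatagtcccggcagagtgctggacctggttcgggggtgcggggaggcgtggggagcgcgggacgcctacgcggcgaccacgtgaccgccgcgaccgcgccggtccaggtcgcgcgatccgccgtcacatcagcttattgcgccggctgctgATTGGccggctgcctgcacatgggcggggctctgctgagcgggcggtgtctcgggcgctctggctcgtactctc
Dhcr7, chr7:143829964-143830263, plus strand: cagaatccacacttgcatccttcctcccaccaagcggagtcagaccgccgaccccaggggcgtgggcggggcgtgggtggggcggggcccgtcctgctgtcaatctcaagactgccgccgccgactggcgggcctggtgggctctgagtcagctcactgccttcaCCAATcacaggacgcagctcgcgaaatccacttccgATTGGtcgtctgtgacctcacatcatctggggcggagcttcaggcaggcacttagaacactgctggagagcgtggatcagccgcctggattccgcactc
The first base of the motif lay 62 bases before the start in Lss, 24 in Sc5d, 160, 96 and 55 in Msmo1, and 85 and 49 in Dhcr7. Genes that were and were not higher in sebocytes of both tissues thus shared it.

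In the annotation of the same build (GRCm38), the genes lie on different chromosomes except for Nsdhl and Ebp, which are both on X. Tm7sf2 (chr19:6062821-6068373, minus strand) overlaps Vps51 on its own strand, so its counts are uncertain. Lss (chr10:76531588-76557138) overlaps 4930483K19Rik and Cyp51 (chr5:4081145-4104746) overlaps Akap9, each on the opposite strand, and a strand setting for the counting is not given in the sources used here. The other 6 genes overlap no annotated gene. They are Msmo1 (chr8:64718139-64733792, minus strand), Nsdhl (chrX:72918557-72958514, plus strand), Hsd17b7 (chr1:169949535-169969241, minus strand), Ebp (chrX:8185329-8193512, minus strand), Sc5d (chr9:42251595-42264256, minus strand) and Dhcr7 (chr7:143823145-143848410, plus strand). All 9 are protein-coding genes.

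Summed over the 9 genes, sebocytes had the highest level among the classes of both tissues. In skin the summed level was 2369.5 CPM (2134 to 2624) in sebocytes, followed by 1037 CPM (977 to 1101) in granular keratinocytes, 487 CPM (471 to 504) in suprabasal keratinocytes and 439 CPM (411 to 469) in the inner root sheath. The 22 melanocytes, with 969 CPM (768 to 1208), had an interval that overlapped that of granular keratinocytes. Hair matrix with 367 CPM, cycling basal keratinocytes with 378 and follicle-marker keratinocytes with 326 had overlapping intervals. Basal keratinocytes reached 225 CPM (213 to 237), and their interval overlapped those of macrophages and dendritic cells at 208 and T cells at 205. Fibroblasts followed with 186 CPM (166 to 207) and endothelial cells with 119 CPM (67.8 to 193). Skeletal muscle, with 29.6 CPM from 4 UMIs, was lowest. In PG the order was sebocytes with 660.3 CPM (637 to 685), follicle-marker keratinocytes with 480.0 CPM (457 to 504), fibroblasts with 244 CPM (211 to 280.1), macrophages and dendritic cells with 193 CPM (151 to 243) and basal keratinocytes with 132 CPM (116 to 149). The intervals of PG fibroblasts and of macrophages and dendritic cells overlapped, and the others in this order did not. The 7 PG suprabasal keratinocytes, at 452 CPM (253 to 746), overlapped both sebocytes and follicle-marker keratinocytes, and cycling basal keratinocytes, at 123 CPM (90.8 to 163), overlapped basal keratinocytes.

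**Figure D1:**
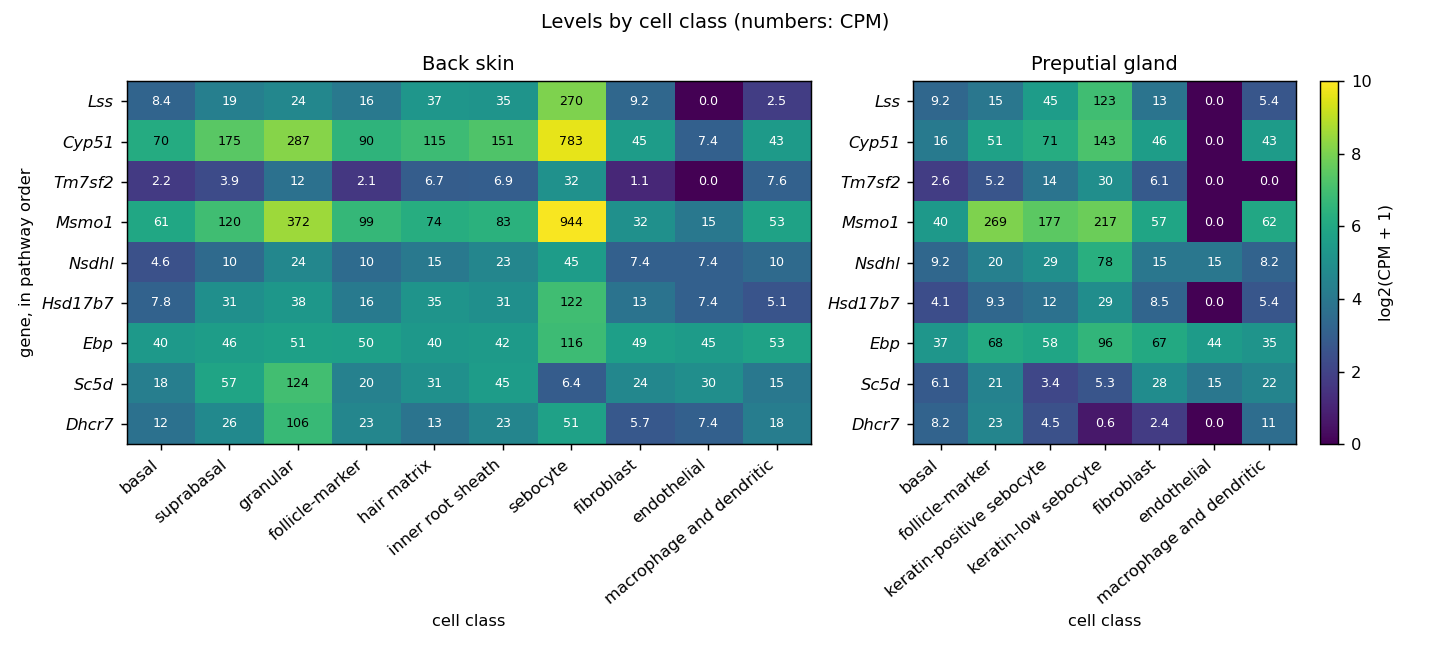
Levels of the 9 genes, in pathway order from top to bottom, in the classes of back skin (left) and preputial gland (right). Each cell gives CPM over the summed UMIs of the class, and colour gives log2(CPM + 1), and sebocytes of the preputial gland are split into keratin-positive and keratin-low cells. The skin sebocyte column is brightest for the first genes, Cyp51 with 783 CPM and Msmo1 with 944 CPM, and dark for Sc5d with 6.42 CPM, whose brightest class is granular with 124 CPM.

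The spread over single cells was wide. In skin, 8 of the 31 sebocytes had no UMI of any of the 9 genes, the median sebocyte had 9.39 UMIs of them per 10000 and the highest 103.9. A single skin sebocyte held 82 of the 369 UMIs, or 22.2%, and without it the summed level was 2017 CPM. In PG, 225 of 851 sebocytes had no such UMI, the median was 3.93 per 10000 and the highest 67.2, and the cell with most UMIs held 1.48% of them. In basal keratinocytes 1781 of 2635 skin cells and 601 of 810 PG cells had none.

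In skin, 8 of the 9 genes were at least 2-fold higher in sebocytes than in basal keratinocytes with an interval that did not reach 1, which is how a gene is called higher or lower throughout, while 7.57% of all 11903 genes with at least 10 UMIs in both classes together were called higher. The summed level differed 10.5-fold (9.37 to 11.8), or 3.40 on the log2 scale, and 2.30 with 46 sebocytes taken from clusters, of which 26 were the same cells. By point value Lss, the cyclase that makes lanosterol, showed the largest ratio of the 9, 32.1-fold (20.9 to 49.0). It stood at 269.7 CPM from 42 UMIs in sebocytes and at 8.41 CPM in basal keratinocytes. Those 42 UMIs lay in 12 of the 31 sebocytes, with 14 in 1 cell, a spread that the interval leaves out. The interval of Lss overlapped those of Hsd17b7 and Tm7sf2. After thinning every cell to 1000 UMIs, 19.4% of skin sebocytes and 0.835% of basal keratinocytes carried a Lss UMI, against 38.7% and 2.01% before thinning. None of 63 skin endothelial cells did (upper limit of the interval 5.69%), at a median depth of 1762 UMIs before thinning against 4523 in skin sebocytes.

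The next steps take off the methyl group at C14. Cyp51, the C14 demethylase and target of azole drugs, stood at 783 CPM (651 to 935) in skin sebocytes and 70.0 CPM (63.6 to 76.8) in basal keratinocytes, an 11.2-fold (9.08 to 13.7) difference. Tm7sf2, which reduces the double bond left at C14, had 5 UMIs in sebocytes and 14 in basal keratinocytes, and its ratio of 14.5-fold is correspondingly loose, with an interval from 4.07 to 42.5. Both genes were higher in sebocytes, by amounts whose intervals overlapped.

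The pair of methyl groups at C4 is removed by an oxidase, a decarboxylating dehydrogenase and a ketoreductase acting in turn. Msmo1, the oxidase, reached 944 CPM (798 to 1109) in skin sebocytes against 61.4 CPM in basal keratinocytes, a 15.4-fold (12.6 to 18.6) difference. Hsd17b7, the ketoreductase, followed at 122 against 7.78 CPM, 15.7-fold (8.72 to 27.1) higher. Nsdhl, the dehydrogenase encoded on the X chromosome, had 45.0 against 4.60 CPM, 9.77-fold (3.61 to 22.8) higher from only 7 sebocyte UMIs. All 3 genes of this complex were thus higher in sebocytes.

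The last steps differed among themselves. Ebp, the isomerase that moves the double bond in the B ring, stood at 116 CPM (68.5 to 183) in sebocytes and 39.8 CPM (35.1 to 45.1) in basal keratinocytes, 2.90-fold (1.69 to 4.68) higher. Sc5d, the C5 desaturase that follows, was represented by 1 UMI in 31 skin sebocytes, or 6.42 CPM (0.163 to 35.8), against 18.2 CPM (15.1 to 21.9) in basal keratinocytes, and the interval of their ratio included equal levels. Dhcr7, the reductase of 7-dehydrocholesterol, the precursor of both cholesterol and vitamin D, had 8 UMIs in 6 of the sebocytes, or 51.4 CPM (22.2 to 101), against 12.4 CPM (9.78 to 15.4), 4.15-fold (1.73 to 8.59) higher. Sc5d was thus the 1 gene of the set that was not called higher in skin sebocytes.

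In PG, 7 of the 9 genes were called higher in sebocytes than in basal keratinocytes, against 7.85% of 11286 genes. A single gene of the 9 was called lower, against 13.2%, so that the lower count is near the background. The summed level was 5.01-fold (4.41 to 5.71) higher. Lss stood at 107 CPM (98.0 to 117) in PG sebocytes and 9.19 CPM (5.45 to 14.5) in PG basal keratinocytes, 11.7-fold (7.31 to 19.9) higher. Cyp51 stood at 129 against 15.8 CPM, 8.16-fold higher, and Tm7sf2 at 26.5 against 2.55 CPM, 10.4-fold higher. The C4 demethylation genes followed, Msmo1 with 209 against 39.8 CPM, Nsdhl with 68.4 against 9.19 CPM and Hsd17b7 with 25.4 against 4.09 CPM, which are ratios of 5.25-fold, 7.44-fold and 6.22-fold. Ebp was 2.40-fold (1.86 to 3.13) higher, with 88.2 against 36.8 CPM, and fell short of 2-fold with a log2 ratio of 0.95 at a mitochondrial limit of 5% and 0.86 after thinning.

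Sc5d in PG had 22 UMIs in sebocytes, or 4.90 CPM (3.07 to 7.42), and 12 UMIs in basal keratinocytes, or 6.13 CPM (3.17 to 10.7), with a log2 ratio of −0.32 (−1.40 to 0.83). Dhcr7 was lower in PG sebocytes, with 6 UMIs in 6 of 851 cells, or 1.34 CPM (0.491 to 2.91), against 16 UMIs, or 8.17 CPM (4.67 to 13.3), in basal keratinocytes, a log2 ratio of −2.61 (−4.25 to −1.18). The ratio of Dhcr7 thus had opposite directions in the 2 tissues. Barcodes of PG with at most 100 UMIs, which hold free RNA, carried Dhcr7 at 8.15 CPM and Sc5d at 8.54 CPM, above the level in PG sebocytes for both. Free RNA was then subtracted as 10% of the UMIs of each class. The summed log2 ratio of PG sebocytes over basal keratinocytes moved from 2.33 to 3.00 and that of Dhcr7 to −3.83. Cyp51 in PG basal keratinocytes stood at 8.19% of its free RNA level, so 10% took off more than its whole count there.

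**Figure D2:**
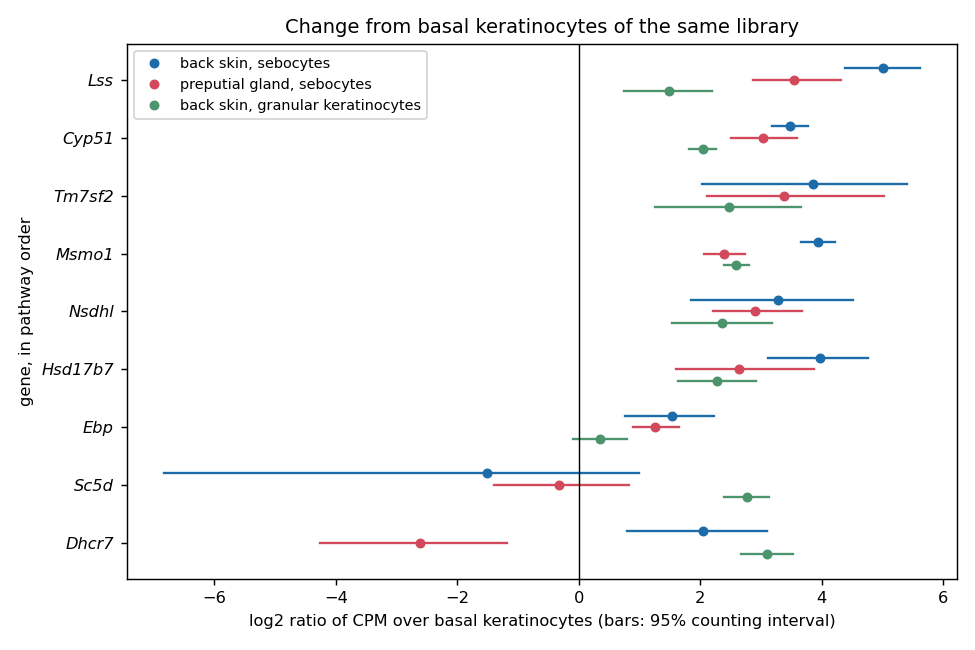
Log2 ratio of CPM over basal keratinocytes of the same library, for sebocytes of back skin, sebocytes of preputial gland and granular keratinocytes of back skin, by gene in pathway order. Points are ratios of summed UMIs and bars are exact 95% counting intervals. The 3 classes lie to the right of 0 from Lss to Hsd17b7, and part at Sc5d and Dhcr7, where granular keratinocytes stand at 2.76 and 3.10 and PG sebocytes at −0.32 and −2.61.

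How much of the set came from its last 2 genes was compared as a share of UMIs, a summary chosen after the values had been seen. Sc5d and Dhcr7 together gave 9 of the 369 UMIs of the 9 genes in skin sebocytes, or 2.44% (1.12 to 4.58), and 28 of 2964 in PG sebocytes, or 0.945% (0.629 to 1.36). In skin basal keratinocytes they gave 193 of 1417 UMIs, or 13.6% (11.9 to 15.5), in granular keratinocytes 243 of 1097, or 22.2% (19.7 to 24.7), and in skin fibroblasts 52 of 324, or 16.0%. In PG the share was 10.9% (7.33 to 15.3) in basal keratinocytes, 8.98% in follicle-marker keratinocytes and 12.5% in fibroblasts. The share is a description and tests nothing, since its 2 genes were picked for their low values. In skin the low share stands beside a level of Dhcr7 that was itself higher in sebocytes than in basal keratinocytes, 51.4 against 12.4 CPM, and beside the higher levels of the other 7 genes in its denominator.

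**Figure D3:**
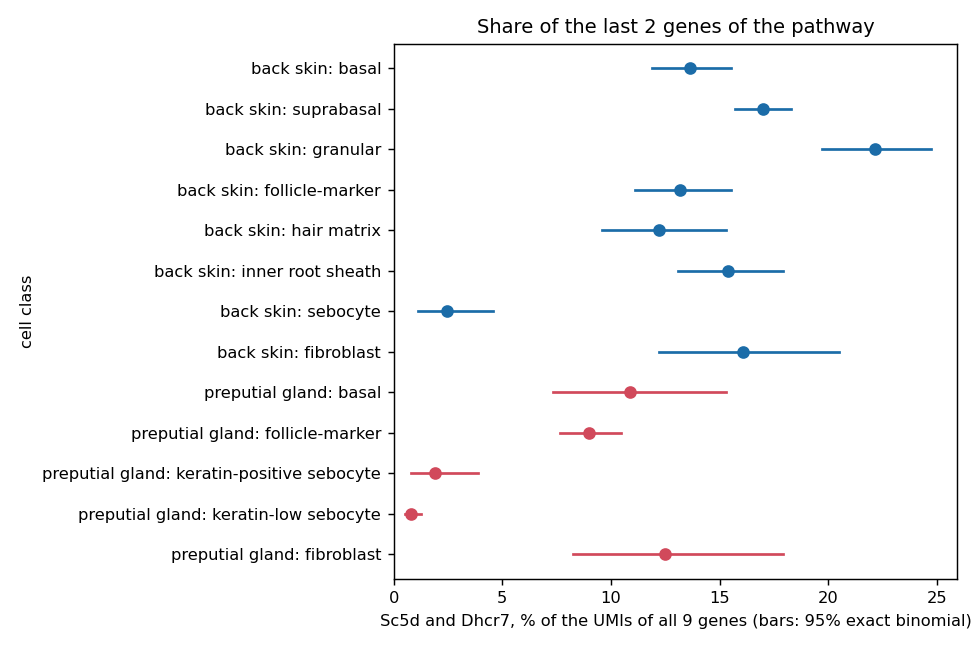
Share of Sc5d and Dhcr7 in the UMIs of all 9 genes, by class of back skin (blue) and preputial gland (red), with sebocytes of the latter split into keratin-positive and keratin-low cells. Bars are exact 95% binomial intervals. The sebocyte classes lie between 0.809% and 2.44%, and the other classes drawn between 8.98% and 22.2%.

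The enzymes before squalene epoxide were higher in sebocytes of both tissues. All 10 genes from Acat2 to Sqle, which make squalene epoxide, were called higher in sebocytes of skin and all 10 in sebocytes of PG, with median log2 ratios of 4.05 and 3.69. The medians of the 9 genes after squalene were 3.48 and 2.64. Those of all genes were −0.11 and −0.06, over 1893 and 9157 genes with enough expected UMIs, a limit not set for the gene lists. Erg28, the scaffold of the C4 demethylation complex, was 6.61-fold (4.61 to 9.26) higher in skin and 2.76-fold (2.11 to 3.66) higher in PG. Lbr, which has sterol C14 reductase activity beside its role in the nuclear lamina, was higher in skin with a log2 ratio of 1.35 (0.38 to 2.19), and in PG it was not called, with 33.6 against 38.3 CPM. Of the 7 regulators 6 were tested in skin, with 2 higher, and 7 in PG, with 2 higher and 1 lower, beside the shares of all genes given above (7.57% higher in skin, 7.85% higher and 13.2% lower in PG), so that the lower count is near the background. Insig1, which holds SREBP in the endoplasmic reticulum and is itself an SREBP target, was higher in both, by 10.3-fold and 6.57-fold. Srebf2, the SREBP gene best known for cholesterol synthesis, stood at 77.1 against 67.9 CPM in skin, which was not called, and at 111 against 53.6 CPM in PG, 2.07-fold (1.67 to 2.58) higher. Of the 9 genes for uptake, esterification and efflux, 8 were tested in skin with 2 higher and 7 in PG with 3 higher, beside the same shares. Soat1, which esterifies cholesterol, was among them in both tissues, with 963 against 2.86 CPM in skin and 220.1 against 12.8 CPM in PG.

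The epidermal layers of skin showed a stepwise rise of the summed level from basal to granular cells. From basal to suprabasal keratinocytes the sum was 2.17-fold (2.04 to 2.31) higher and 6 of 9 genes were called higher, against 5.6% of 12947 genes. Hsd17b7 led with 7.78 CPM in basal and 30.7 CPM in suprabasal keratinocytes, 3.95-fold higher, followed by Sc5d with 18.2 and 56.8 CPM, 3.11-fold higher. Cyp51, Lss, Nsdhl and Dhcr7 were 2.50-fold, 2.24-fold, 2.19-fold and 2.10-fold higher. Msmo1 at 1.95-fold was just short of the limit, Tm7sf2 stood at 1.75-fold (0.887 to 3.61) and Ebp at 1.16-fold (0.981 to 1.38). With cells of at least 1000 genes and 2000 UMIs, the log2 ratios of Nsdhl and Dhcr7 were 0.98 and 0.90, under 2-fold.

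From suprabasal to granular keratinocytes the sum was 2.13-fold (1.99 to 2.28) higher, and 5 of 9 genes were called higher, against 8.49% of 11726 genes. The granular step was not among the comparisons planned. Dhcr7 showed the largest ratio of the set here, from 25.9 CPM to 106 CPM (87.2 to 127), 4.08-fold (3.20 to 5.20) higher. Msmo1, Tm7sf2, Nsdhl and Sc5d were 3.10-fold, 3.16-fold, 2.34-fold and 2.18-fold higher, whereas Lss at 1.25-fold (0.782 to 1.93), Hsd17b7 at 1.23-fold (0.856 to 1.73), Cyp51 at 1.64-fold (1.44 to 1.86) and Ebp at 1.10-fold (0.812 to 1.48) were not called.

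Granular over basal keratinocytes, a comparison added after the data had been seen, had 8 of 9 genes higher against 11.5% of 12167 genes, with Dhcr7 8.56-fold (6.35 to 11.6) and Sc5d 6.79-fold (5.24 to 8.80) higher. Ebp alone was not called, with 39.8, 46.2 and 51.1 CPM in the 3 layers. By point value Sc5d and Dhcr7 therefore had the highest granular ratios of the 9, whereas in PG sebocytes their ratios were the lowest. The granular interval of Sc5d overlapped that of Msmo1, which was 6.05-fold (5.25 to 6.98) higher. Over the alternatives the granular log2 ratio of Hsd17b7 reached 3.70, above the highest of Dhcr7 at 3.58. Lss, 2.81-fold (1.67 to 4.60) higher, fell to a log2 ratio of 0.94 when classes were taken from clusters. The squalene-forming genes were called higher in granular cells for 10 of 10, with a median log2 ratio of 2.34, beside 2.36 for the 9 genes and −0.48 for all genes. Granular cells were deeper than basal cells, with a median of 7802 against 2166 UMIs, and after thinning all cells to 1000 UMIs the summed log2 ratio was 2.50 in place of 2.21. The ratios over basal keratinocytes in skin share the same basal cells.

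**Figure D4:**
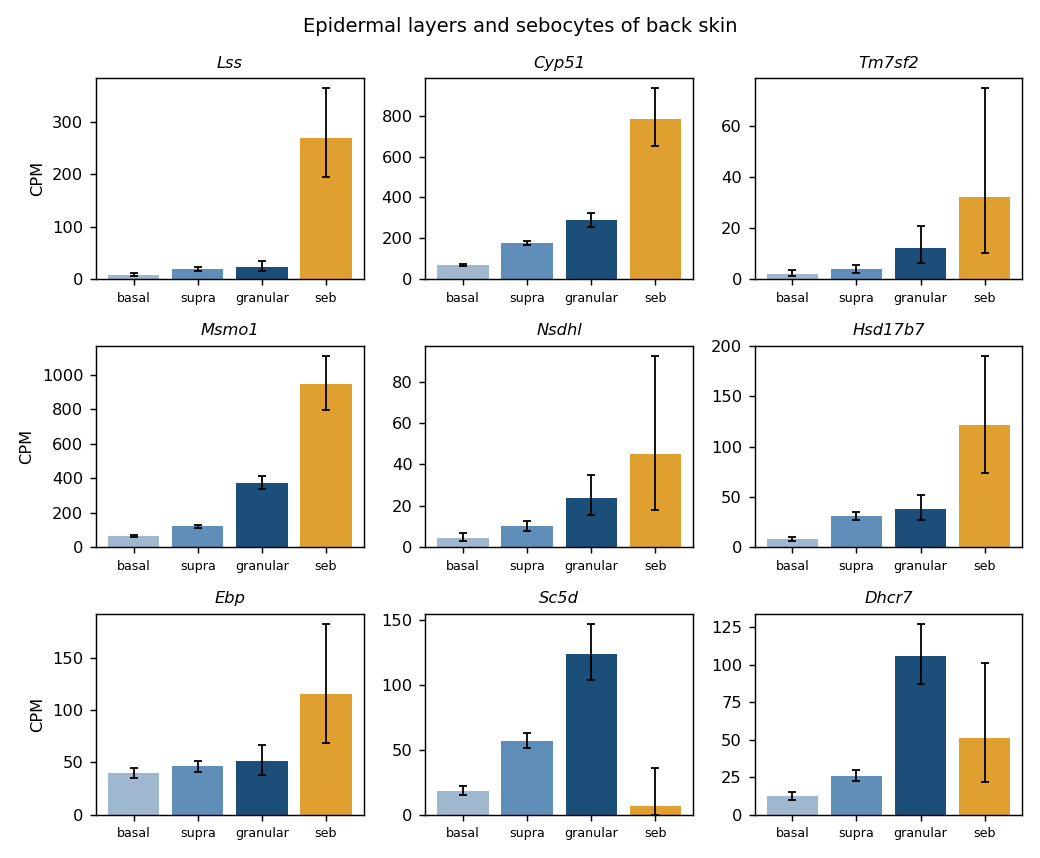
CPM of each of the 9 genes in basal, suprabasal and granular keratinocytes and in sebocytes (seb) of back skin. Bars start at 0, each panel has its own scale, and error bars are exact 95% Poisson intervals. Sc5d and Dhcr7 are highest in granular keratinocytes, at 124 and 106 CPM, and the other 7 genes in sebocytes.

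Set directly against each other, in a comparison not among those planned, skin sebocytes exceeded granular keratinocytes in 5 genes, against 18.5% of 7166 genes. In 2 genes sebocytes lay below granular keratinocytes, against 14.1%, so that the lower count is near the background. Lss was 11.4-fold (6.79 to 19.5), Hsd17b7 3.23-fold (1.76 to 5.70), Cyp51 2.73-fold (2.19 to 3.37), Msmo1 2.54-fold (2.09 to 3.08) and Ebp 2.26-fold (1.25 to 3.92) higher in sebocytes. Sc5d was 19.3-fold lower, on a single sebocyte UMI, with a log2 ratio of −4.27 (−9.58 to −1.77), and Dhcr7 2.06-fold lower, with a log2 ratio of −1.04 (−2.29 to −0.02).

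Along the follicle of skin fewer genes were called than in sebocytes. Hair matrix cells, which build the growing hair, had a summed level 1.63-fold (1.48 to 1.80) that of basal keratinocytes, and 4 of 9 genes were called higher, against 15.6% of 12329 genes. These were Hsd17b7 with 34.8 CPM, 4.48-fold (2.97 to 6.76) higher, Lss with 36.8 CPM, 4.38-fold (2.95 to 6.51) higher, Nsdhl with 15.4 CPM, 3.35-fold (1.85 to 5.99) higher, and Tm7sf2, 3.01-fold (1.20 to 7.30) higher, whose log2 ratio was 0.54 when classes were taken from clusters and 0.13 with at least 4 markers. Msmo1 at 1.20-fold (0.961 to 1.49) and Dhcr7 at 1.08-fold (0.627 to 1.79) had intervals that included equal levels. Hair matrix cells carried a median of 3.65 sebocyte marker UMIs per 10000, for the most part Mgst1 at 381 CPM and Scd1 at 84.4 CPM, while Cidea, Awat1, Awat2 and Pparg had no UMI, which allows up to 2.01 CPM each. Cells that also met the sebocyte gate of 3 markers were left out of this class, so these zeros are partly set by the gate. The part of the sebocyte marker UMIs in the result was not tested.

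In the inner root sheath, 6 of 9 genes were called higher than in basal keratinocytes, against 15.8% of 12443 genes. Nsdhl was 5.04-fold (3.10 to 8.30) and Lss 4.16-fold (2.88 to 6.06) higher, while Hsd17b7, Tm7sf2, Sc5d and Cyp51 were between 2.16-fold and 3.93-fold higher. Skin keratinocytes with follicle markers had 2 genes called higher, Nsdhl and Hsd17b7, against 6.8% of 12622 genes, at 2.26-fold and 2.05-fold. Neither the inner root sheath comparison nor that of follicle-marker keratinocytes was among those planned.

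PG keratinocytes with follicle markers (Krt79, Krt17, Cst6, Krt6a, Krt75 and Sox9, of which Krt79 also marks sebaceous ducts) had 6 of 9 genes higher than PG basal keratinocytes, against 6.49% of 11280 genes, in a comparison likewise added after the data had been seen. Msmo1 stood out with 269 CPM (252 to 287) against 39.8 CPM (31.5 to 49.7), 6.75-fold (5.35 to 8.62) higher, and at a level above the 209 CPM of PG sebocytes. Sc5d and Dhcr7 were 3.35-fold (1.80 to 6.79) and 2.76-fold (1.60 to 5.06) higher, at 20.5 and 22.6 CPM, against 4.90 and 1.34 CPM in PG sebocytes. Cyp51 was 3.25-fold, Hsd17b7 2.26-fold and Nsdhl 2.14-fold higher. The log2 ratio of Hsd17b7 was under 1 in 4 of the alternative settings, with 0.44 at the lowest, and that of Nsdhl was 0.80 as a mean over cells. Basal keratinocytes had at most 1 sebocyte marker, a limit not set for follicle-marker keratinocytes, and its part in the ratios was not tested.

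Within PG sebocytes, 216 keratin-positive cells, with at least 20 UMIs of Krt5 and Krt14 per 10000, were set against 635 keratin-low cells. The markers of the sebocyte gate did not all run one way over this split, with Scd1 at 1864 and 3317.5 CPM in keratin-positive and keratin-low cells but Awat2 at 1637 and 391 CPM, so the split is not read as an order of maturation. Median depth also differed, at 3514 and 5433 UMIs, and its part in the ratios was not tested. Of 8 genes with enough UMIs, 5 were higher in keratin-low cells, against 1.54% of 10358 genes. Lss rose from 45.2 CPM (32.3 to 61.5) to 123 CPM (112 to 135), 2.72-fold (1.96 to 3.85) higher, and Nsdhl from 29.4 to 78.0 CPM, 2.66-fold (1.78 to 4.14) higher. Hsd17b7, Tm7sf2 and Cyp51 were 2.30-fold, 2.19-fold and 2.02-fold higher. Msmo1 at 1.22-fold (1.03 to 1.46) and Ebp at 1.66-fold (1.24 to 2.28) differed by less than 2-fold. Dhcr7 had 4 UMIs in keratin-positive and 2 in keratin-low cells, too few to be compared, out of 885750 and 3603010 UMIs in all. In the 14 keratin-positive and 17 keratin-low skin sebocytes the summed levels were 2242 CPM (1917 to 2605) and 2491 CPM (2157 to 2862), and none of 5 comparable genes was called, beside 2.23% of 2106 genes called higher and 2.28% lower, so that nothing can be read from this count. The split cuts a range, since 429 of the PG sebocytes and 15 of the skin sebocytes had between 10 and 30 keratin UMIs per 10000.

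Between tissues, 5 of the 9 genes were lower in PG sebocytes than in skin sebocytes, against 7.79% of 10472 genes. None was higher, against 5.62%, a share at which a count of 0 of 9 is near the background. The summed level was 3.59-fold lower, with a log2 ratio of −1.84 (−2.00 to −1.68). Cyp51 was 6.06-fold lower, with a log2 ratio of −2.60 (−2.88 to −2.31), Hsd17b7 4.80-fold, Msmo1 4.52-fold and Lss 2.51-fold. Dhcr7 was 38.4-fold lower on 6 UMIs in PG and 8 in skin, with a log2 ratio of −5.26 (−7.07 to −3.55). Nsdhl at a log2 ratio of 0.61 (−0.45 to 1.93), Tm7sf2 at −0.28 (−1.54 to 1.37), Ebp at −0.39 (−1.07 to 0.38) and Sc5d at −0.39 (−3.02 to 4.98) were not called, and their intervals allow differences of more than 2-fold for all 4. When sebocytes were taken from clusters, 46 in skin and 807 in PG, the summed log2 ratio was −0.89, and Lss at −0.72 and Msmo1 at −0.91 were under 2-fold. With at least 4 markers Lss stood at −0.90. By the gate of 3 markers, 4 of the 10 genes before squalene epoxide were lower in PG sebocytes and 1 higher. Their median log2 ratio was −0.75, beside −1.33 for the 9 genes and 0.16 for all genes. The other sterol enzymes had 2 of 3 lower, beside the same shares of all genes as above. Of 7 regulators 2 were lower and 2 higher, and of 7 tested genes for uptake, esterification and efflux 2 were lower and none higher.

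In other classes fewer genes were called between tissues, in counts near the shares of all genes given beside them. In basal keratinocytes 2 genes were lower in PG, against 15.6% of 12494 genes: Cyp51 with 15.8 against 70.0 CPM, 4.42-fold lower, and Sc5d with 6.13 against 18.2 CPM, 2.98-fold lower. None was called higher there, against 15.1%. The summed log2 ratio was −0.77, and −1.40 with free RNA subtracted at a share above what Cyp51 allows in PG basal keratinocytes. Lss at a log2 ratio of 0.13 (−0.73 to 0.92) and Ebp at −0.12 (−0.51 to 0.27) included equal levels, and Nsdhl, with 9.19 against 4.60 CPM, lay just under 2-fold. In follicle-marker keratinocytes Msmo1 alone was higher in PG, 2.71-fold (2.37 to 3.11), against 11.6% of 11921 genes, and none was called lower, against 18%. The follicle-marker comparison was not among those planned. In fibroblasts none of 8 comparable genes was called, while 8.42% of 10689 genes were called higher and 6.84% lower, shares at which a count of 0 of 8 is near the background, with log2 ratios from −1.23 for Dhcr7 to 0.97 for Nsdhl and 0.39 (0.13 to 0.65) for the sum. With 1 library per tissue, no difference between these classes was tested.

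**Figure D5:**
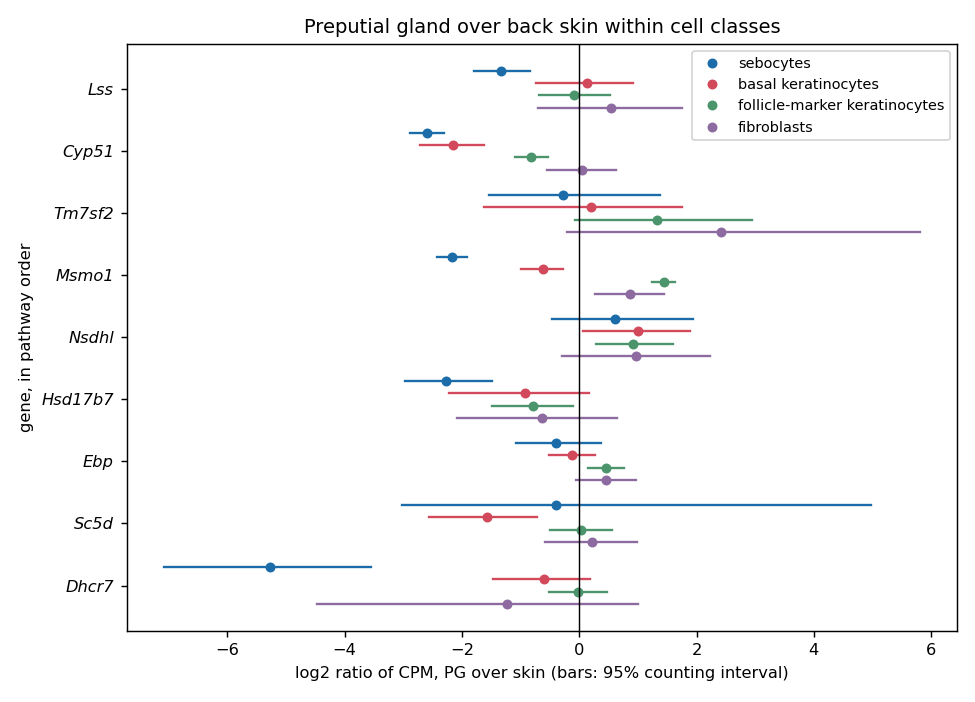
Log2 ratio of CPM in preputial gland over back skin within sebocytes, basal keratinocytes, follicle-marker keratinocytes and fibroblasts, by gene. Points are ratios of summed UMIs, bars are exact 95% counting intervals, and each ratio compares 1 library with 1 library. Cyp51 lies at −2.60 in sebocytes, −2.14 in basal keratinocytes and 0.05 in fibroblasts, Msmo1 at −2.18 in sebocytes and 1.44 in follicle-marker keratinocytes.

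Free RNA differed between the libraries. In the barcodes with at most 100 UMIs the 9 genes summed to 281 CPM (267 to 295) in skin and 607 CPM (577 to 638) in PG, which in skin lay above basal keratinocytes and fibroblasts but below suprabasal keratinocytes, and in PG above every class except sebocytes. In PG these barcodes held Cyp51 at 193 CPM and Msmo1 at 224 CPM, beside 129 and 209 CPM in sebocytes. PG endothelial cells had no UMI of Lss, Cyp51 or Msmo1, which allows up to 44.4 CPM each by the limit of 3 UMIs, and skin endothelial cells none of Lss, which allows up to 22.3 CPM by the same limit. Levels in PG basal keratinocytes ranged from 8.19% of the free RNA level for Cyp51 to 100.2% for Dhcr7. The part of free RNA in the ratios was not tested beyond the subtraction given above.

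Across the 25 classes of both tissues, the genes varied together to unequal degrees. This is a description over classes that share their libraries but not their depth, and every class weighs the same. Some hold few UMIs of the 9 genes together, such as 3 in skin contractile cells and 6 in PG contractile cells. The log2 level of Msmo1 had a Pearson r of 0.82 with that of the other 8 genes summed, Cyp51 0.79 and Tm7sf2 0.73, while Dhcr7 had 0.54 and Sc5d the lowest, 0.33. The genes outside the sterol lists whose levels were most like the sum of the 9, among 8758 genes, were Ssr4 with r of 0.81, H2afj with 0.79 and Hsd17b12, a 3-ketoacyl-CoA reductase of fatty acid elongation, with 0.79, followed among others by Pex3, Psmd2, Acss2, Ormdl2, Muc15 and Kctd1, the last with 0.72. Among the genes before squalene, Fdps with r of 0.80 and Mvd with 0.78 were nearest and Idi1 with 0.49 was farthest.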

How the data were processed

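Droplet-based 3′ single-cell RNA sequencing was analysed from 1 back skin and 1 preputial gland library of 3 pooled mice. The authors deposited unfiltered UMI counts per gene and barcode as written by Cell Ranger 4, and per the labels the build was mm10. An aligner version and an annotation release are not given in the sources used here. Each library was filtered, and cells were gated by detection of at least 3 markers of a class. A cell with markers of a stromal class and an epidermal one was left out. So was a cell that met the sebocyte gate and that of hair matrix or inner root sheath. Basal keratinocytes had at most 1 sebocyte marker, a limit not set for suprabasal, granular or follicle-marker keratinocytes. The gating rule was set after the data had been seen, and 6 of 7 hair matrix markers were among the features. Doublets were not removed in the values reported. Some 711 skin and 1050 PG cells met no gate, and 416 and 178 met 2 compartments.

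UMIs were summed per class and scaled to CPM. Levels carry exact Poisson intervals and ratios exact binomial ones, at 95%. A gene was compared with at least 10 UMIs in both classes together, and called with at least a 2-fold ratio and an interval without 1. The median over all genes used genes with at least 10 expected UMIs in the smaller class, while medians over gene lists used every gene compared. Cells are not replicates, so no p-value is given. The ratio and the gates were run on simulated counts drawn from summed class profiles. Such draws hold counting error and depth only, so they cannot show how the intervals fare with the spread between cells. All 9 genes are named, with counts over other sterol gene lists and the genes of most similar pattern, of which some are not reported here. Results were recomputed under 9 alternative settings, and under a gate of 4 markers chosen after seeing the data. For clusters, 2000 variable genes, 30 components, 15 neighbours and Leiden resolution 2 were used. Likeness of pattern was a Pearson correlation of log2(CPM + 1) over genes with at least 50 CPM in some class. The genes and lists were chosen with earlier results of these data known. Python 3.11.15, numpy 2.4.6, scipy 1.17.1, pandas 2.3.3, scanpy 1.11.5, leidenalg 0.10.2, scikit-learn 1.9.0 and matplotlib 3.10.9 were used.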

Additional observations from a re-analysis of the deposited data

Results flagged for a closer look

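The ratio of Dhcr7 in sebocytes over basal keratinocytes had opposite directions in the tissues, with a log2 ratio of 2.05 (0.79 to 3.10) in skin and −2.61 (−4.25 to −1.18) in PG. Each tissue is 1 library, and the difference between them was not tested. In PG, 13.2% of 11286 genes were called lower in sebocytes than in basal keratinocytes, so 1 such gene among 9 is near the background. It rests on 8 UMIs in 6 of 31 skin sebocytes and 6 UMIs in 6 of 851 PG sebocytes. Over the alternatives that gave a value, the log2 ratio ranged from 1.24 to 2.91 in skin and from −3.83 to −2.07 in PG.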

How the results depend on the processing

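Under the 9 alternative settings and the gate of 4 markers, which was chosen after seeing the data, no called ratio of the 9 genes turned its direction in the 6 comparisons below, in granular over basal keratinocytes of skin or in follicle-marker over basal keratinocytes of PG. The other comparisons were not recomputed. The summed log2 ratio of skin sebocytes over basal keratinocytes was 3.19 from 1000 genes and 2000 UMIs upward, 3.20 with at most 5% mitochondrial UMIs, 2.30 with classes from clusters, 3.21 as a mean over cells, 3.12 after thinning and 3.74 with at least 4 markers. That of PG sebocytes over basal keratinocytes was 1.95 with at most 5% mitochondrial UMIs, 2.04 as a mean over cells, 1.97 after thinning, 3.00 with free RNA subtracted and 2.58 with at least 4 markers. Skin suprabasal over basal keratinocytes gave 1.01 with the stricter depth limits, 1.22 with free RNA subtracted, 1.23 when scaled to the median of all genes and 1.23 with 4 markers, and hair matrix over basal keratinocytes 0.53 with the stricter limits, 0.39 with clusters and 0.87 as a mean over cells. PG over skin gave in sebocytes −2.02 with at most 5% mitochondrial UMIs, −0.89 with clusters, −2.00 when scaled to all genes and −1.67 with 4 markers, and in basal keratinocytes −0.56 after thinning, −1.40 with free RNA subtracted and −0.50 with 4 markers. Of the sebocytes from clusters in skin, 26 of 46 were sebocytes by the gate as well. Removing doublet-like and the deepest cells moved none of these 6 ratios beyond its counting interval, and dropping the minimum of 10 UMIs moved no count of called genes by over 1.5 times. Free RNA subtraction took off more Cyp51 than PG basal keratinocytes held and so left no value there. No replicate could be left out. No paired analysis was possible because each tissue has 1 library and no test was run. The cause of these shifts was not tested. Depth limits Sc5d, Dhcr7, Tm7sf2 and Nsdhl in skin sebocytes, with 1 to 8 UMIs each. With 4 markers no Dhcr7 ratio could be had in PG sebocytes.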

Other observations

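Melanocytes of skin, the pigment cells of the follicle, had a high summed level of the 9 genes, 969 CPM (768 to 1208), overlapping that of granular keratinocytes. It came from 22 cells, of which 6 had no UMI of the genes, and a single cell held 32 of the 79 UMIs, or 40.5%. Without that cell the summed level was 727 CPM. Cyp51 with 30 UMIs and Msmo1 with 22 UMIs gave most of the sum, and Lss had 1. PG held no gated melanocyte.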
